A study of Mus musculus with 6 samples.

Results

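Kinesins are motor proteins that walk along or take apart microtubules, and their transcripts were followed in mouse CD4+ T cells that carry a cancer-associated change in the splicing factor Sf3b1. The members were all genes whose symbol is Kif followed by a digit, plus Kifc1, Kifc2, Kifc3 and the kinesin-associated Kifap3, with pseudogenes left out. This gave 38 genes of the 26469 in the deposited table. By known function 12 were placed in a mitotic class and 16 in a transport class, and 10 others act on microtubule dynamics or cilia or have a role that is less settled. Levels passed the filter on low counts in 32 of the 38, which were all 12 mitotic, 14 transport and 6 other kinesins.

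RNA sequencing was done on 6 cultures, 3 mutant and 3 control. Mutant cells came from Sf3b1K700E/fl /Cd4Cre mice, in which the Cre recombinase under the Cd4 promoter acts in developing T cells and turns on the K700E allele. Control cells came from Sf3b1K700E/fl mice, which carry the same conditional allele without Cre and are labelled wild type. Naive CD4+ T cells of the spleen were cultured in all 6 cases for 36 h with TGFβ at 5 ng/ml, antibodies that stimulate CD3 and CD28, and antibodies that block IL-4 and IFNγ, a mixture that drives naive cells towards regulatory T cells. The labels do not say whether each culture had its own donor mouse, nor give age or sex. The p-values therefore rest on the variation among these 6 cultures, of which some may be technical.

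The libraries held 34524433 to 36867313 counts in mutant and 33633196 to 43928723 in control cells. Sf3b1 was at 649, 593 and 639 CPM (counts scaled to library size, TMM-adjusted CPM) in mutant libraries and at 632, 712 and 638 CPM in control libraries, and gene totals cannot tell the K700E allele from the unmutated one. The CD4+ T cell markers Cd3e, Cd3g, Cd4, Trac, Lat and Thy1 summed to 1460 to 2142 CPM in mutant and 1437 to 2027 CPM in control libraries. The 5 B cell markers summed to 3.67 to 40.3 CPM in mutant libraries, with the highest value in mutant 2, and to 1.92 to 4.91 CPM in control libraries. The CD8 markers summed to 6.56 to 17.3 CPM in mutant and 5.81 to 40.4 CPM in control libraries, and myeloid, NK and erythroid markers each stayed at or below 8.16 CPM in every library. Foxp3, the defining factor of regulatory T cells, was at 230, 118 and 52.3 CPM in mutant and 119, 139 and 108 CPM in control libraries. Other markers of these cells had their highest mutant value in mutant 2. Il2ra was at 1935, 2747 and 1791 CPM in mutant and 2405, 2796 and 2473 CPM in control libraries. Ctla4 was at 263.5, 479.7 and 245.1 CPM in mutant and 325.8, 299.9 and 273.9 CPM in control libraries. Ikzf2 was at 105.6, 351.9 and 81.42 CPM in mutant and 135.8, 136.5 and 79.06 CPM in control libraries. Control 1 had Xist at 3475 CPM and Y-linked genes at 0 to 0.029 CPM, whereas the other 5 libraries had Xist at 0.14 to 0.66 CPM, so control 1 came from a different animal than controls 2 and 3.

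In dividing cells, mitotic kinesins push spindle poles apart, align chromosomes on the spindle and build the midzone where the cell is cut, and their genes are switched on as cells approach mitosis. Most transport kinesins carry vesicles, mitochondria and protein complexes towards microtubule plus ends throughout the cell cycle. Naive T cells rest, and stimulation through CD3 and CD28 brings them into the cycle, so both classes are used in such cultures. Counts of a bulk culture cannot tell fewer dividing cells from less kinesin RNA in each dividing cell.

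Of the 12 mitotic kinesins, 11 had a lower mean in mutant than in control cells, with a median log2 fold change of -0.27, against 0.024 for all 18323 genes tested, of which 47.1% had a lower mean. All mutant values were below all control values in 6 of the 12, namely Kif11, Kif14, Kif15, Kif18a, Kif20b and Kif23, where 7.48% of all genes tested did so. None passed the edgeR quasi-likelihood test after Benjamini-Hochberg adjustment over all genes (adjusted p from 0.598 to 0.963), and nor did any other gene (0% of genes tested). At an unadjusted p under 0.05, 2 mitotic kinesins were lower, Kif15 and Kif23, where 3.48% of all genes were. Over all 32 tested kinesins this held for 4 lower and 1 higher gene, where 4.14% of all genes were higher and 7.62% passed in either direction. The median was -0.14 without mutant 1, with 11 of 12 still lower.

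The promoters of the mitotic class are shown because they share short elements. The genes were chosen by symbol and known function, not by sequence. Such elements are known from genes of this function, so finding them here is no separate evidence. Promoters of G2 and M phase genes often hold a cell cycle genes homology region (CHR, TTTGAA), bound by the DREAM and MYB-MuvB complexes, next to CCAAT boxes bound by NF-Y, while replication genes often hold E2F sites. RefSeq windows from 250 bases before to 50 after the start (GRCm38.p6) were matched for 11 mitotic kinesins (not Kif20a), 11 transport kinesins (not Kif5a, Kif5b, Kif13b, Kifc2 or Kifc3) and 8 others (not Kif19b or Kif21b), and searched on both strands. The stretches printed run from 100 bases before to 20 after the start, with CHR, CCAAT and E2F core letters (TTTGGCGC or TTTCGCGC) or their reverse complements in capitals. Kif15 is from chr9:122950981-122951100 on the plus strand, Kif11 from chr19:37376282-37376401 on the plus strand, Kif22 from chr7:127042401-127042520 on the minus strand and Kif23 from chr9:61946780-61946899 on the minus strand. Kif18b is from chr11:102925105-102925224 on the minus strand, Kif20b from chr19:34922258-34922377 on the plus strand, and the transport kinesins Kif3b and Kif1c from chr2:153291316-153291435 on the plus strand and chr11:70700448-70700567 on the plus strand.
Kif15: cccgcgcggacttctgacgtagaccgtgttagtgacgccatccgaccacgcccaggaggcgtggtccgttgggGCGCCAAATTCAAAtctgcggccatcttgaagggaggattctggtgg
Kif11: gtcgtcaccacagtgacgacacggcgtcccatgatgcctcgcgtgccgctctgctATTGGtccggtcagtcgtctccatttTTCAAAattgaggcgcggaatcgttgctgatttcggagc
Kif22: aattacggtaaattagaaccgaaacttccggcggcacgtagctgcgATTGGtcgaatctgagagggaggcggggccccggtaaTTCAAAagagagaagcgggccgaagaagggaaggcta
Kif23: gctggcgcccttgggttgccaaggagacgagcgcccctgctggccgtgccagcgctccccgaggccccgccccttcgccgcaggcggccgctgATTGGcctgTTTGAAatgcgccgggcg
Kif18b: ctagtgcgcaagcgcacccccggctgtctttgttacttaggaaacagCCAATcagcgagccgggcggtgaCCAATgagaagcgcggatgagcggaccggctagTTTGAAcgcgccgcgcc
Kif20b: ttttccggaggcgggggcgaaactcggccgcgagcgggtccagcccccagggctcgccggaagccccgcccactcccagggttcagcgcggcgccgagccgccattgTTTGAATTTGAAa
Kif3b: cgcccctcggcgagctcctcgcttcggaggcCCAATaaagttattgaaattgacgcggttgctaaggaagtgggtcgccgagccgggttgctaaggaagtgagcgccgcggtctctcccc
Kif1c: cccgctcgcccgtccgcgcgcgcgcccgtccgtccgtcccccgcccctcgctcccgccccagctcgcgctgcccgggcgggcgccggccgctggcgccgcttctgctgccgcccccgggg

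A CHR was found in 10 of the 11 mitotic windows, in 1 of the 11 transport kinesins (Kif1a) and in 2 of the 8 others, against 17.9% of 32851 mouse windows (a gene may have several windows). The only CHR of Kif14 began 228 bases before the start and that of Kif2c 103 bases before it, while that of Kif1a began 44 bases before it. Every mitotic stretch printed above holds a whole CHR, unlike those of Kif14, Kif2c, Kif4 and Kif18a, which are not printed. The mitotic kinesin without a CHR was Kif18a, which holds an E2F core that starts 10 bases before its start site. CCAAT stood in 7 of 11 mitotic, 4 of 11 transport and 3 of 8 other kinesins, against 37.4% of all windows. Both elements stood in the same window, at any distance, in 7 of 11 mitotic, 0 of 11 transport and 2 of 8 other kinesins, against 6.95% of all windows. A CHR that starts 5 to 60 bases after a CCAAT stood in 6 mitotic, 0 transport and 1 other kinesin, against 1.85% of all windows. In Kif15 the reverse complement of an E2F core begins 27 bases before the start and runs straight into that of a CHR that begins 19 bases before it, with no overlap. An E2F core was present in 2 mitotic kinesins, Kif15 and Kif18a, and in 0.813% of all windows. Kif18b, whose mean was not lower in mutant cells, holds 2 CCAAT boxes and a CHR, so the letters alone did not separate members that differed between the groups from members that did not. These are matches of letters, not measured binding.

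Kif15 (ENSMUSG00000036768, chromosome 9), a plus-end motor that holds the spindle bipolar beside Kif11, had the lowest log2 fold change of the class. It was at 111, 107 and 120 CPM in mutant libraries, against 196, 203 and 199 CPM in control libraries. The 3 mutant values lay close together and far below the 3 control values. The mean was 113 ± 6.30 CPM in mutant and 199.5 ± 3.21 CPM in control cells (SD, n = 3), which is 43.6% lower. On the log2 scale the difference was -0.82 ± 0.12 (SE), with a 95% interval from -1.11 to -0.54 and the third smallest p of 18323 genes, with adjusted p = 0.598 in the edgeR quasi-likelihood test. DESeq2 called it lower (adjusted p = 0.000738), the only kinesin among the 100 genes that tool called, of which 48 were lower (0.307% of the 15627 genes with an adjusted p from that tool) and 52 higher (0.333%).

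In each mutant library Kif15 was further below its control mean than the rest of its class was. Relative to the mean of the other 11 mitotic kinesins, and with the control mean set to 0, log2 Kif15 was at -0.52, -0.69 and -0.61 in mutant 1, 2 and 3. The control values on that scale were 0.095, -0.14 and 0.041, so the groups did not overlap. Leaving out any single library kept its log2 fold change between -0.87 and -0.77. Without Kif15 the median of the class was -0.26. Since Kif15 was known from earlier results of these data to be among the genes with the smallest p, these values describe it and are no separate evidence.

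Kif11, which crosslinks and slides antiparallel microtubules to push the poles apart, had the highest level of the class per length. It was at 296, 280 and 307 CPM in mutant libraries and at 328, 378 and 356 CPM in control libraries. All mutant values lay below all control values, with a log2 fold change of -0.26 ± 0.13 (SE, 95% interval from -0.56 to 0.034). Kif22, a chromosome arm motor that binds DNA, was at 77.7, 77.2 and 80.6 CPM in mutant and 78.0, 99.6 and 81.7 CPM in control libraries. Kif4, which works on condensed chromosomes and later on the midzone, was at 108, 102 and 113 CPM in mutant and 103, 134 and 113 CPM in control libraries. Kif4 lies on the X chromosome. Both overlapped between the groups, with control 2 as the highest library.

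The kinesins of the midzone and of cytokinesis were lower in mean. Kif23, the motor subunit of centralspindlin, was at 67.4, 70.1 and 83.9 CPM in mutant libraries, against 91.9, 109 and 97.5 CPM in control libraries. The groups did not overlap, and the difference on the log2 scale was -0.43 ± 0.15 (SE; 95% interval, -0.77 to -0.092). Kif20a, which brings the chromosomal passenger complex to the midzone, was at 120, 95.6 and 102 CPM in mutant and 113, 169 and 129 CPM in control libraries. Mutant 1 lay above control 1, and the log2 difference was -0.37 ± 0.18 (SE), or -0.19 without control 2. Kif20b, which acts in the completion of cytokinesis, was at 79.4, 123 and 128 CPM in mutant and 133, 135 and 145 CPM in control libraries. Kif14, which recruits citron kinase for the last step of division, was at 57.0, 73.4 and 77.9 CPM in mutant and 87.9, 85.9 and 88.3 CPM in control libraries. In both of these genes mutant 1 was the lowest library and the groups did not overlap. The log2 fold changes of -0.33 for Kif20b and -0.33 for Kif14 were -0.13 and -0.19 without mutant 1.

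Of the kinesins that trim microtubule ends, Kif18a, which dampens chromosome movement at the metaphase plate, was at 35.9, 45.4 and 48.2 CPM in mutant and 51.7, 53.4 and 52.5 CPM in control libraries. Its control values were close together and above every mutant value, and its log2 fold change of -0.28 was -0.15 without mutant 1. Kif2c, which frees wrongly attached microtubules at centromeres, was at 72.1, 74.5 and 77.4 CPM in mutant and 70.2, 101 and 75.1 CPM in control libraries. Kif18b, which shortens astral microtubules, was at 55.2, 69.7 and 63.0 CPM in mutant and 54.5, 73.3 and 56.0 CPM in control libraries. Neither separated the groups, and the intervals of their log2 fold changes ran from -0.52 to 0.25 for Kif2c and from -0.36 to 0.42 for Kif18b. Kifc1, the minus-end motor that focuses spindle poles, was at 60.7, 62.9 and 60.4 CPM in mutant and 58.3, 72.2 and 57.0 CPM in control libraries. Kifc1 has a near-identical copy, Kifc5b, to which its reads may be assigned, and the sum of both was 85.5 ± 4.80 CPM in mutant and 88.5 ± 7.46 CPM in control cells (SD, n = 3).

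**Figure D1:**
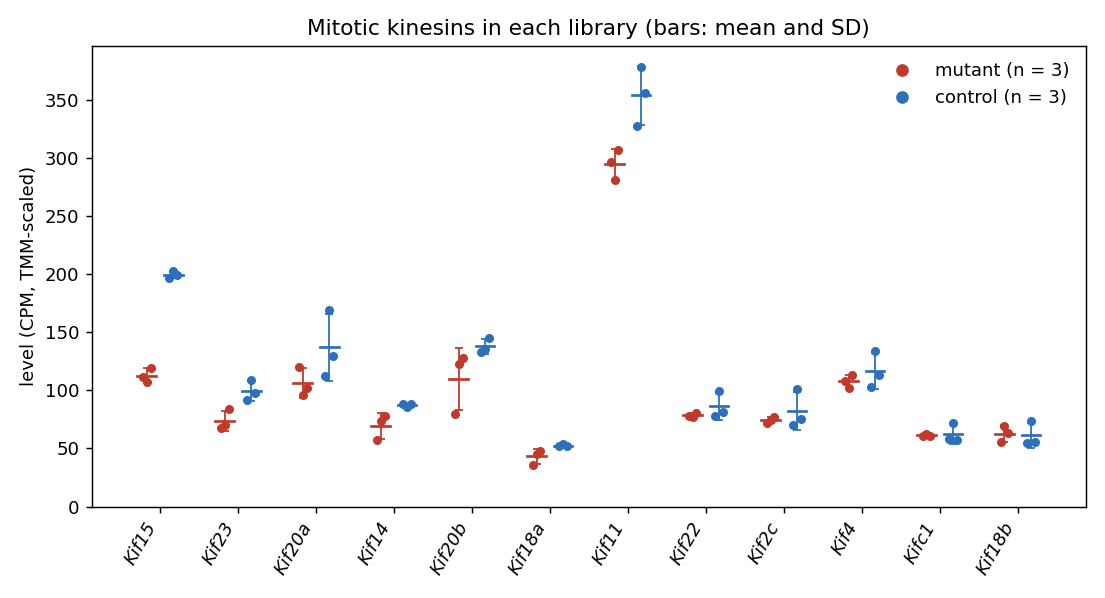
Levels of the 12 mitotic kinesins (CPM, linear axis from 0) in the 3 mutant (red, left) and 3 control (blue, right) libraries, ordered by log2 fold change. Points are libraries, and bars give the mean and SD. Kif15 shows the widest gap, 107 to 120 CPM in mutant against 196 to 203 CPM in control libraries, while Kif20a, Kif2c, Kif4, Kif22, Kifc1 and Kif18b overlap.

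Control libraries differed among themselves in this class. Control 2 was the highest control library in 10 of the 12 mitotic kinesins and control 1 the lowest in 10. Their summed level was 1141, 1181 and 1261 CPM in mutant 1, 2 and 3, and 1365, 1612 and 1450 CPM in control 1, 2 and 3, so the sums did not overlap. Without Kif15 the sums lay closer, at 1030 to 1142 CPM in mutant and 1169 to 1409 CPM in control libraries. Mitotic kinesins made up 49.4, 50.6 and 54.4% of all kinesin CPM in mutant and 52.7, 58.8 and 55.4% in control libraries, and here mutant 3 lay above control 1.

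Differences in the transport class were smaller in median. Of its 14 tested members, 10 had a lower and 4 a higher mean in mutant cells, with a median log2 fold change of -0.069. All mutant values were below all control values in 0 of 14 (7.48% of all genes) and above in 1, Kifc2 (6.6% of all genes). The mitotic median was lower than the transport median by 0.20 on the log2 scale. That gap was -0.068 without control 2 and -0.36 without mutant 3, and the transport median was 0.034 without mutant 3.

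The mean log2 level of the mitotic class minus that of the transport class, with the control mean set to 0, was -0.59, -0.38 and -0.035 in mutant 1, 2 and 3. The control values were -0.22, 0.27 and -0.053 in control 1, 2 and 3. Mutant 3 therefore lay within the control range, and the libraries of the groups overlapped in the contrast of the classes. The transport class alone was at 0.23, 0.13 and -0.14 in mutant 1, 2 and 3. Its mutant mean of 0.069 was opposite in sign to its median log2 fold change of -0.069. Each gene counts equally in this mean, so the low-level Kifc2 and Kifc3 (8.17 and 17.6 CPM in mutant 1) raise the transport level of mutant 1. The value of -0.59 for mutant 1 thus depends on these low-level genes. No gene-wise test addresses the contrast of the classes, which is given as a description.

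Among the transport kinesins, the conventional kinesin heavy chain Kif5b, which moves mitochondria and many vesicles, was at 205, 288 and 292 CPM in mutant and 269, 294 and 249 CPM in control libraries. Kif3b, a motor subunit of heterotrimeric kinesin, which builds cilia and carries vesicles, was at 188, 170 and 131 CPM in mutant and 159, 168 and 163 CPM in control libraries. The spread of both was wider among mutant libraries, and their log2 fold changes of -0.048 ± 0.17 and -0.0060 ± 0.16 (SE) were smaller than their errors. Kif3a, the partner subunit of Kif3b, was at 5.79, 9.12 and 6.22 CPM in mutant and 8.16, 6.56 and 8.54 CPM in control libraries. Kifap3, the adaptor of the Kif3 motors, was at 16.7, 21.5 and 17.3 CPM in mutant and 20.1, 23.0 and 20.9 CPM in control libraries. Kif3c, an alternative partner of Kif3a, was at 24.0, 20.8 and 11.4 CPM in mutant and 25.2, 16.9 and 24.0 CPM in control libraries. Neither Kif3a nor Kifap3 nor Kif3c separated the groups.

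The motors of vesicles and organelles in the Kif1 and Kif13 groups overlapped as well. Kif1b, a carrier of mitochondria and synaptic vesicle precursors in neurons, was at 99.8, 157 and 131 CPM in mutant and 140, 132 and 143 CPM in control libraries. Kif1c, a fast vesicle motor, was at 49.8, 57.8 and 44.1 CPM in mutant and 52.8, 54.9 and 45.5 CPM in control libraries. Kif13b was at 80.5, 68.7 and 79.3 CPM in mutant and 79.4, 62.9 and 61.3 CPM in control libraries, with a log2 fold change of 0.17 ± 0.15 (SE), or 0.29 without control 1. Kif16b, which moves early endosomes, was at 45.4, 44.2 and 41.3 CPM in mutant and 48.8, 44.6 and 48.3 CPM in control libraries. Kif13a, which carries endosomal cargo, was at 20.3, 14.5 and 11.2 CPM in mutant and 16.5, 12.3 and 17.1 CPM in control libraries. No member of these groups separated mutant from control libraries.

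Both low-level C-terminal motors, Kifc2 and Kifc3, were high in mutant 1 alone. Kifc2, a minus-end motor described in neurons, was at 8.17, 1.81 and 1.30 CPM in mutant and 0.842, 1.11 and 1.18 CPM in control libraries. The groups did not overlap, but mutant 1 set the size of the log2 fold change of 1.84 ± 0.69 (SE, edgeR adjusted p = 0.644), which was 0.59 without it. Its exons overlap Cyhr1 on the other strand, which was at 68.7, 55.3 and 46.8 CPM in mutant and 43.2, 51.8 and 45.3 CPM in control libraries. Kifc3, which carries apical vesicles in epithelia and acts at cell junctions, was at 17.6, 4.16 and 7.39 CPM in mutant and 4.04, 6.93 and 4.52 CPM in control libraries, and its log2 fold change of 0.91 ± 0.51 (SE) was 0.18 without mutant 1. The remaining tested members Kif5a and Kif5c, neuronal forms of the conventional kinesin, were at 0.650 to 5.78 CPM in mutant and 0.418 to 8.57 CPM in control libraries. Kif17 and Kif1a were below the count filter, with at most 10 counts in any library.

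**Figure D2:**
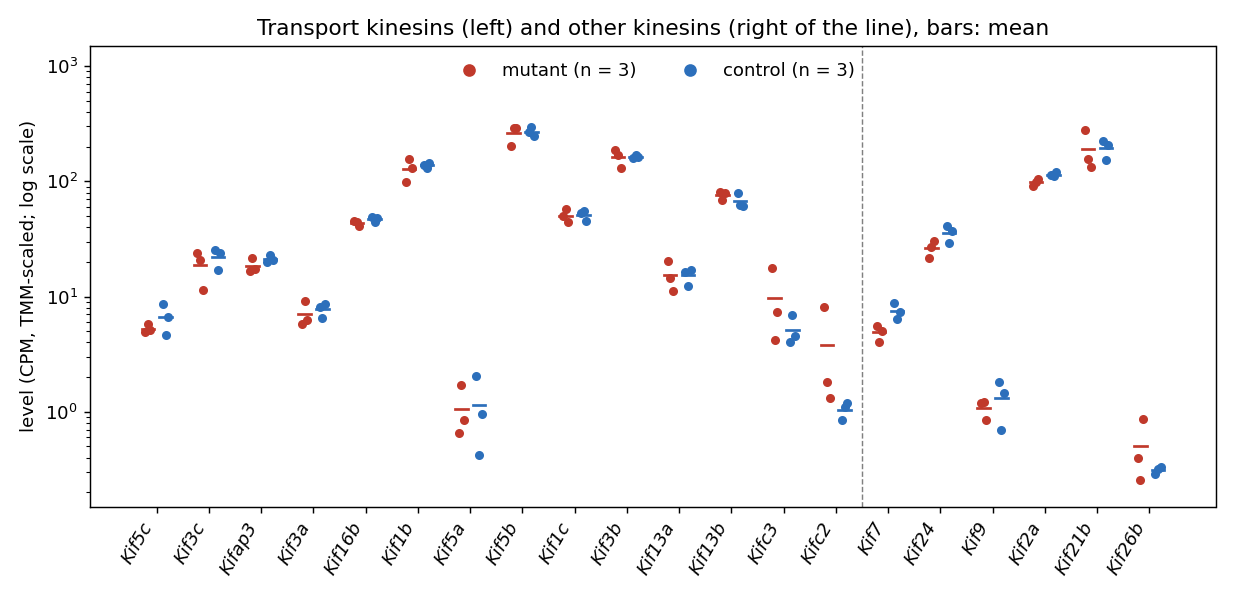
Levels (CPM, log axis) of the 14 tested transport kinesins and, right of the dashed line, the 6 tested other kinesins in the 3 mutant (red, left) and 3 control (blue, right) libraries, with short bars at the means. Groups overlap in 13 of the 14 transport kinesins, and Kifc2 and Kifc3 show 1 mutant library, mutant 1, far above the other mutant libraries.

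In the remaining class, 5 of 6 tested genes had a lower mean in mutant cells, and 2 separated the groups downward, against 7.48% of all genes. Kif2a, which shortens microtubules at spindle poles and in growing neurites, was at 91.4, 98.8 and 106 CPM in mutant and 113, 111 and 120 CPM in control libraries. Kif7, which regulates Hedgehog signalling at the tip of cilia, was at 5.60, 4.05 and 5.05 CPM in mutant and 8.80, 6.41 and 7.30 CPM in control libraries. Its exons overlap those of Ticrr on the other strand in the GENCODE M21 annotation, and Ticrr, a replication gene, was at 101 to 117 CPM in mutant and 126 to 140 CPM in control libraries. The labels do not state strand, so reads of overlapping genes cannot be told apart, which also applies to Kif18a, Kif20a, Kif22, Kif2a, Kif3c, Kif4, Kif5b, Kifc2 and Kifc3. Kif24, which holds back cilium formation at the centriole, was at 21.7, 27.0 and 30.3 CPM in mutant and 40.8, 29.3 and 37.5 CPM in control libraries. Kif24 and Kif7 had an unadjusted p under 0.05, with log2 fold changes of -0.44 ± 0.19 and -0.61 ± 0.24 (SE, edgeR adjusted p = 0.645 for both).

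Kif21b, a motor that limits microtubule growth and is used in T cells to place the centrosome at the synapse, was at 281, 155 and 133 CPM in mutant and 226, 153 and 206 CPM in control libraries. The widest spread was among mutant libraries, and the mean level was almost equal, at 190 ± 79.8 CPM in mutant and 195 ± 37.5 CPM in control cells (SD, n = 3). Leaving out mutant 1 gave a log2 fold change of -0.42, and leaving out mutant 3 gave 0.16. Kif9 and Kif26b were at 0.255 to 1.22 CPM in mutant and 0.290 to 1.83 CPM in control libraries, and Kif19b, Kif21a, Kif26a and Kif27 had at most 5 counts in any library.

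**Figure D3:**
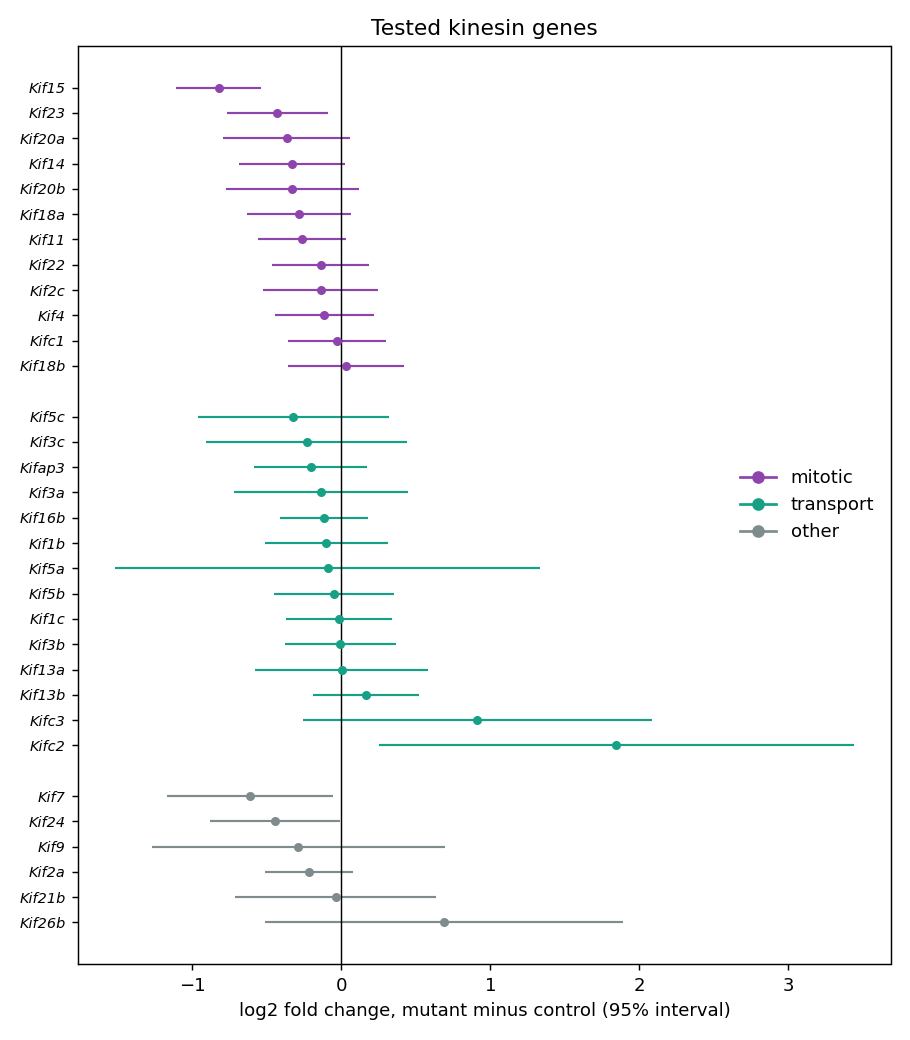
Log2 fold changes (mutant minus control) of the 32 tested kinesins with 95% intervals from the quasi-likelihood fit, grouped into mitotic, transport and other members. The intervals of Kif15, Kif23, Kif7 and Kif24 lie below 0 and that of Kifc2 above 0 before adjustment, and none passed after adjustment over all genes.

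Levels were compared between genes as CPM per kilobase of annotated exon. Kif11 was the most abundant mitotic kinesin at 39.5 ± 1.79 CPM per kilobase in mutant and 47.4 ± 3.39 in control cells (SD, n = 3), and Kif18a the least at 4.39 ± 0.66 in mutant and 5.35 ± 0.087 in control cells. Kif20a followed Kif11 at 24.5 ± 2.95 CPM per kilobase in mutant and 31.5 ± 6.66 in control cells. Kif4, Kifc1, Kif18b, Kif2c, Kif22 and Kif20b lay between 15.8 and 19.5 in mutant and between 17.2 and 21.1 in control cells, with SDs of 0.38 to 3.82 in mutant and 0.94 to 3.80 in control cells. In control cells the libraries of neighbours in the order of means overlapped, while in mutant cells Kif4 at 19.5 ± 1.00 lay above Kifc1 at 18.0 ± 0.39, and Kif2c at 17.1 ± 0.61 above Kif22 at 16.01 ± 0.38, with no overlap of libraries. Kif15 stood among them in control cells at 18.1 ± 0.29 CPM per kilobase but was at 10.2 ± 0.57 in mutant cells, near Kif23 at 9.34 ± 1.13. The level of Kifc1 leaves out reads assigned to its copy Kifc5b, which had a mean of 24.2 CPM in mutant and 26 CPM in control cells. The place of Kifc1 in this order may therefore be higher. The transport kinesins Kif5b and Kif3b were at 32.8 ± 6.18 and 28.9 ± 5.19 CPM per kilobase in mutant and 33.9 ± 2.86 and 29.0 ± 0.81 in control cells.

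The partners of the mitotic kinesins were lower in mean too, and none of those tested passed after adjustment. In the central spindle and chromosomal passenger list 10 of 10 means were lower in the mutant, by a median of -0.24 on the log2 scale, against 47.1% of all genes with a lower mean, and 2 were lower without overlap, against 7.48% of all genes. That median was -0.14 without mutant 1. Citron kinase, Cit, was at 84.8, 96.1 and 87.8 CPM in mutant and 115, 104 and 119 CPM in control libraries. The mitotic kinase Aurkb was at 82.9, 84.6 and 94.4 CPM in mutant and 98.6, 119 and 102 CPM in control libraries. Both separated the groups, while Birc5, a subunit of the passenger complex, did not at 99.2 to 121 CPM in mutant and 116 to 145 CPM in control libraries.

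Of 10 genes of spindle assembly and chromosome movement, 9 had a lower mean, with a median of -0.30, and 5 were lower without overlap, against 7.48% of all genes. Cenpe, a kinesin of the kinetochore that the symbol rule did not take in, was at 153, 212 and 195 CPM in mutant and 264, 259 and 278 CPM in control libraries. Kntc1, which recruits dynein to kinetochores, was at 83.3, 122 and 129 CPM in mutant and 172, 152 and 184 CPM in control libraries. Bora, an activator of mitotic entry, was at 53.7, 58.3 and 70.4 CPM in mutant and 73.7, 77.7 and 76.2 CPM in control libraries. All 3 separated the groups and none passed edgeR's test (adjusted p = 0.612, 0.629 and 0.665).

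The lists of transport partners and of the opposite motor had medians near 0, which changed sign with upper quartile scaling. Of 14 genes for kinesin light chains and cargo adaptors, 8 had a lower mean, with a median log2 fold change of -0.035 and 1 gene without overlap in each direction, a share close to the 7.48% of all genes that were lower and the 6.6% that were higher in this way. Klc4, a light chain, was at 11.0, 6.09 and 3.94 CPM in mutant and 4.36, 4.69 and 4.68 CPM in control libraries, again with the highest value in mutant 1. Klc1, another light chain, was at 63.5, 71.8 and 70.2 CPM in mutant and 76.4, 73.6 and 76.4 CPM in control libraries. Kbtbd2 was at 109.9, 71.0 and 87.5 CPM in mutant and 69.9, 86.1 and 76.5 CPM in control libraries. Only Klc1 among these 3 separated the groups. Of 21 tested dynein and dynactin genes, which build the minus-end motor and its activator, 11 had a lower mean, with a median of -0.015. Dynlt3, a dynein light chain, was at 25.4, 31.7 and 22.0 CPM in mutant and 30.8, 33.5 and 33.0 CPM in control libraries, and overlapped. Dctn3, a dynactin subunit, was at 17.9, 20.3 and 18.7 CPM in mutant and 21.0, 23.4 and 21.3 CPM in control libraries and did not overlap. Dynlt1b, another light chain, was at 9.78, 30.4 and 10.6 CPM in mutant and 9.52, 13.3 and 10.7 CPM in control libraries, with mutant 2 as the high value.

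Markers of cycling cells were lower in mean as well, 10 of 10 in the mutant, by a median of -0.18 on the log2 scale. Their summed level was 3465 to 3980 CPM in mutant and 3794 to 4308 CPM in control libraries, and none is at 0. Their mean log2 level relative to the control mean was -0.38, -0.18 and -0.071 in mutant 1, 2 and 3, against -0.17, 0.20 and -0.027 in control 1, 2 and 3. The mitotic kinesins were at -0.36, -0.26 and -0.18 in mutant 1, 2 and 3, against -0.11, 0.15 and -0.037 in control 1, 2 and 3. Without Kif15 the mitotic kinesins were at -0.32 to -0.13 in mutant and -0.12 to 0.16 in control libraries. The order of the libraries was the same in both lists within each group, and the difference between the lists was -0.11 to 0.016 in mutant and -0.053 to 0.063 in control libraries. Bub1, a spindle checkpoint kinase with the smallest p of the list, was at 63.8, 92.9 and 94.0 CPM in mutant and 114.8, 126.4 and 119.7 CPM in control libraries. Mki67, the standard marker of dividing cells, was at 1517, 1687 and 1685 CPM in mutant and 1622, 1600 and 1890 CPM in control libraries. The part of cell cycling in the level of the mitotic kinesins was not tested.

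**Figure D4:**
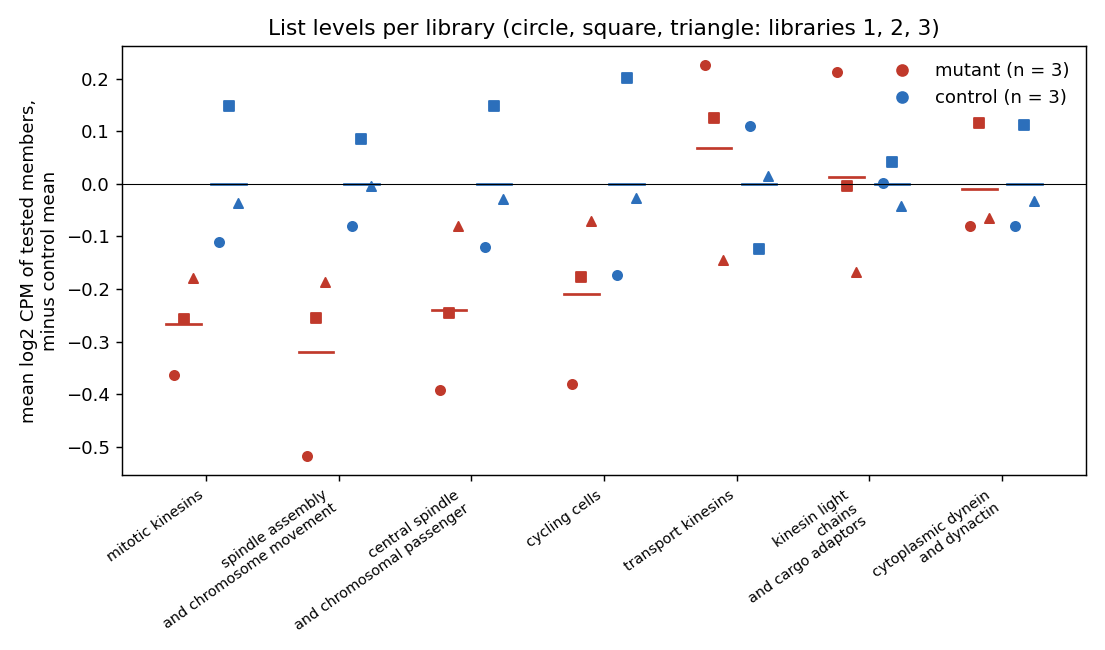
Mean log2 CPM of the tested members of 7 gene lists in each library, minus the control mean (mutant red and left, control blue and right; circles, squares and triangles are libraries 1, 2 and 3; short lines are group means). The 3 mutant libraries lie below the 3 control libraries for mitotic kinesins (-0.36 to -0.18 against -0.11 to 0.15) and spindle assembly genes, and overlap them for the other 5 lists.

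The genes whose level followed Kif15 most closely over the 6 libraries were Gm9347, Trappc6b, H1f4, Parn and Glod4, with Pearson r from 0.983 to 0.994 in log2 CPM among 9371 genes at 10 CPM or more. The 6 points fall into the 2 groups, so these values mostly describe genes that separate mutant from control libraries, and no p is given. H1f4, a linker histone, was at 275, 259 and 309 CPM in mutant and 425, 427 and 451 CPM in control libraries. Parn, a poly(A) ribonuclease, was at 40.6, 41.7 and 41.4 CPM in mutant and 53.1, 56.3 and 54.9 CPM in control libraries. Among the mitotic kinesins Kif23 and Kif11 were nearest to Kif15, with r of 0.915 and 0.914.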

How the data were processed

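RNA was taken from 6 cultures, 3 mutant and 3 control, and 1.0 µg of total RNA went into libraries depleted of ribosomal RNA, per the labels' protocols. The submitters' processing notes name STAR 2.7.8a and Partek with the builds GRCm39 and mm39, without naming an annotation or strand setting. Values deposited by the authors are estimated counts, not normalized, 58.3% of them whole; these were rounded here to whole numbers.

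After filterByExpr at a minimum count of 10, 18323 genes holding 99.92% of counts remained. TMM factors scaled the libraries, which were tested with edgeR 4.0.16 (quasi-likelihood, robust) in R 4.3.3 over all 6 samples, mutant minus control. Two-sided p-values were Benjamini-Hochberg adjusted across every tested gene (threshold 0.05). Each standard error is |log2 fold change| over the square root of F, and list levels use log2 CPM with a prior count of 2. Deposited counts of 10 tested kinesins may include reads of a gene that overlaps on the other strand in GENCODE M21, from which exon lengths were taken. No library repeated another of its group (chi-square over degrees of freedom, 18.7 to 177). Alternatives used DESeq2 1.42.0 and limma 3.58.1, other scalings and filters, a replicate block and leaving out libraries. The procedure was tested on simulated data in which the changed genes had larger log2 changes than most kinesins had here. That test does not cover small differences.

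Members, lists and classes were chosen with earlier results of these data known. Named were all members, up to 3 genes of each partner list with the smallest p, and the 5 genes most like Kif15 by the rule. Mki67, Bub1, Foxp3, Il2ra, Ctla4 and Ikzf2 were added as markers after their values were seen. Splicing was not analysed here.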

Additional observations from a re-analysis of the deposited data

How the results depend on the processing

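In edgeR, 0 genes passed at 0.05 in the main fit, so 0 at an adjusted p of 0.01 was fixed in advance. Under every other scaling, filter, block or left-out library 0 genes passed as well. The main fit had 1396 genes at an unadjusted p under 0.05, and these alternatives had 618 (without control 3) to 2426 (without mutant 3). The limma-voom fit also called 0 genes (1299 unadjusted). DESeq2 called 100 genes and 1 kinesin, Kif15 (-0.85), for which the adjusted p of edgeR and limma-voom ran from 0.249 to 0.987 over the alternatives. The mitotic median ran from -0.32 to -0.14 when single libraries were left out (-0.14 without mutant 1), the transport median from -0.14 to 0.034, the median of the other kinesins from -0.41 to -0.11 and the mitotic minus transport gap from -0.36 to -0.068. The share of mitotic kinesins with a lower mean was 9 to 12 of 12 in these fits. Mitotic kinesins without overlap numbered 6 to 8 of 12, where 9.1 to 16.3% of all genes were lower without overlap.

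Same-numbered libraries did not deviate together (correlations of deviations -0.0477, -0.0669 and -0.0285). Differently numbered libraries were at -0.00517 to 0.0725. These values alone cannot show whether the samples were prepared as pairs. With the replicate block the mitotic median was -0.28, the transport median -0.044 and 0 genes passed.

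Members with small differences changed sign. Kif13a was at -0.0030 with DESeq2 size factors, -0.018 in DESeq2, -0.022 in limma-voom, -0.016 without a count filter and -0.024 with the block. With upper quartile scaling and with the filter of 1 CPM in 3 samples, Kif1c was at 0.020 and 0.019, Kif3b at 0.027 and 0.028 and Kifc1 at 0.013 and 0.0086. Kif5a was at 0.086 in limma-voom and 0.020 with the block. Without mutant 2 and control 1 together, chosen after seeing the data, Kif18b was at -0.13, Kif21b at 0.21 and Kif5a at 0.12, and the mitotic median at -0.31. Leaving out single libraries gave -0.24 to 0.18 for Kif13a, -0.051 to 0.18 for Kif18b, -0.24 to 0.067 for Kif1b, -0.10 to 0.070 for Kif1c and -0.42 to 0.16 for Kif21b. It gave -0.24 to 0.038 for Kif2c, -0.11 to 0.13 for Kif3b, -0.44 to 0.020 for Kif3c and -0.58 to 0.62 for Kif5a. It gave -0.14 to 0.11 for Kif5b, -0.60 to 0.0096 for Kif9 and -0.079 to 0.088 for Kifc1. The cause of each was not tested.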
